A study of Mus musculus with 12 samples.

Results

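Calcium reuptake and buffering in muscle were followed through 6 genes chosen by symbol, Atp2a1, Atp2a2, Sln, Pvalb, Srl and Hrc, among the 19938 genes with a transcript cluster (the array's probe set for a gene) annotated to exactly 1 symbol. All 6 were found, each with a single cluster. RNA came from C2i-Myog cells, a stable derivative of C2C12 mouse myoblasts whose added Flag-tagged mouse Myog is switched on by doxycycline. Myog encodes myogenin, a DNA-binding regulator that drives late steps of myogenesis. The cells were held for 48 h in differentiation medium with 1% horse serum, insulin and transferrin. There were 4 groups of 3 arrays, all of the same line. Control cells received neither agent, although their label names no differentiation and only the shared protocol places them in it. The Dox group was given 0.2 µg/mL doxycycline. The SB group was given 10 µM of SB203580, which blocks the p38 alpha and beta MAP kinases, and the SB+Dox group was given the pair together. Cells lacking the transgene were not among the groups, so effects of the drug and of the exogenous Myog cannot be told apart. Nothing in the labels states that replicates came from different cultures. The p-values therefore reflect just the variation among these arrays, and that may be technical.

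Muscle relaxes when the calcium ions released for contraction are pumped back into the sarcoplasmic reticulum by SERCA, a calcium ATPase. Atp2a1 encodes SERCA1, the pump of fast-twitch fibres, and Atp2a2 encodes SERCA2, the pump of slow-twitch and cardiac muscle, which in another splice form serves the endoplasmic reticulum of most cells. Sarcolipin (Sln) is a small membrane protein that binds the pump and lowers its efficiency. Sarcalumenin (Srl) and the histidine-rich calcium-binding protein (Hrc) bind calcium inside the reticulum and act on pump and release channel, whereas parvalbumin (Pvalb) is a soluble buffer of the cytosol of fast fibres.

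Deposited values were log2 RMA signals, so 1 unit is a doubling of signal, and a gene's level here is not comparable with that of another gene. The array medians lay between 4.86 and 5.06 over all clusters and between 5.29 and 5.44 over the tested ones, and replicates of a group correlated across clusters at 0.989 to 0.996. SB replicate 3 stood apart from the other SB arrays on principal component 2 (-8.47, against 20.3 and 11.7) and component 3 (15.2, against -11.4 and -7.72). The 8 markers of differentiated skeletal muscle were Myh3, Myh8, Acta1, Ckm, Tnnt3, Ttn, Mymk and Myog, the last being also the gene of the transgene. They averaged 9.50 to 9.82 on the control arrays, 8.26 to 9.06 with SB, 9.93 to 10.25 with Dox and 9.55 to 9.94 with SB+Dox. In every group, 7 or 8 of them had a group mean above the median of the tested clusters. Markers of adipocytes (4 measured) and osteoblasts (3 measured) had 0 members above that median in any group, and those of cardiac muscle and neurons had 1 of 4 each. Cardiac markers averaged 4.88 to 5.16 over all 12 arrays and neuronal markers 4.75 to 5.16. Chondrocyte and smooth muscle markers had 2 of 4 each above the median, the latter averaging 7.21 to 7.52. The 5 markers of myoblasts and reserve cells were Pax7, Myf5, Myod1, Cd34 and Spry1. They averaged 7.03 to 7.17 in control, 7.31 to 7.41 with SB, 6.53 to 6.61 with Dox and 7.03 to 7.04 with SB+Dox. These markers did not move together. In SB against control Myf5 and Cd34 were called higher and Myod1 lower, and Pax7 and Spry1 were not called. In Dox against control Myf5, Cd34 and Spry1 were called lower and the others were not called. In SB+Dox against control Cd34 was called higher and Myod1 lower. Myog, whose cluster may read the endogenous transcript, the transgene or both, was measured from lowest to highest array at 9.66, 9.89 and 10.18 in control and at 10.30, 10.39 and 10.40 with Dox. It was at 6.93, 7.96 and 8.21 with SB and at 8.10, 8.23 and 8.68 with SB+Dox. All Dox arrays lay above all control arrays, a difference of 0.46 that missed the threshold (limma adjusted p = 0.467). Myog was lower in SB than in control by a log2 change of -2.21 (adjusted p = 9.39e-05), and 0.64 higher in SB+Dox than in SB, which missed it too (adjusted p = 0.157). Without SB replicate 3 the latter difference was 0.89 and passed (adjusted p = 0.0311), and without SB replicate 1 it was 0.25 (adjusted p = 0.549).

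The part of these shifts in the results below was not tested, and in bulk RNA fewer differentiated cells cannot be told apart from less transcript per cell.

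Promoter sequences from RefSeq (GRCm38.p6) were found for 3 of the 6 genes and are shown because myogenin binds E-boxes, the motif CANNTG. Each runs from 250 bases before the transcription start to 50 after it, 5′ to 3′ on the gene's strand, with E-boxes in capitals. Atp2a1 lies on chromosome 7 (126445858 to 126463103), Hrc on chromosome 7 (45335269 to 45338973) and Pvalb on chromosome 15 (78191112 to 78206400). Atp2a2 lies on chromosome 5 (122453513 to 122502225), Sln on chromosome 9 (53850251 to 53853849) and Srl on chromosome 16 (4476979 to 4541908).
Atp2a1, chr7:126463024-126463323, minus strand: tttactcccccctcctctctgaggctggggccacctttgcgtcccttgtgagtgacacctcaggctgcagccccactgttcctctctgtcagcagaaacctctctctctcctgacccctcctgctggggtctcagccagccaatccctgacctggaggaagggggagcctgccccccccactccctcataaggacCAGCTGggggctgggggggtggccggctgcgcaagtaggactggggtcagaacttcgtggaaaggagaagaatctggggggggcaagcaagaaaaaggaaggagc
Hrc, chr7:45335019-45335318, plus strand: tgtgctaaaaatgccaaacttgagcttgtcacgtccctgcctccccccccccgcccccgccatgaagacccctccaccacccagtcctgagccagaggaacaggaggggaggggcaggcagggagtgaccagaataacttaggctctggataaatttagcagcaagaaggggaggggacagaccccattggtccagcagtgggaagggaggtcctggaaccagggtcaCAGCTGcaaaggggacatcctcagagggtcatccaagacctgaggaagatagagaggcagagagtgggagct
Pvalb, chr15:78206351-78206650, minus strand: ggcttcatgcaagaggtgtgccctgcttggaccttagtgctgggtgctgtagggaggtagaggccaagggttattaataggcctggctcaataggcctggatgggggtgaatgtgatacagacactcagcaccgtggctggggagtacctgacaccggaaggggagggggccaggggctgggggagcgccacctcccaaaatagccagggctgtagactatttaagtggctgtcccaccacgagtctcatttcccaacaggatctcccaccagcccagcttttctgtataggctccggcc

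The Atp2a1 and Hrc windows each held 1 E-box, CAGCTG in both, whose first base lay 55 bases before the start in Atp2a1 and 22 bases before it in Hrc. The Atp2a1 start used here was not the outermost end of the gene, whereas that of Hrc was. The Pvalb window at the outermost start held 0, and that of a second annotated Pvalb start (chr15:78204188-78204487) held 2 (CATGTG and, after the start, CATATG). The general motif CANNTG, which reads as itself on both strands, occurred in 72.3% of all 32851 promoter windows of 300 bases, and its subset CAGCTG in 16.3%. Another subset, CACCTG or its complement, occurred in 20.2% of windows and in 0 of these 4. The letters describe the windows only.

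Atp2a1, the fast pump, was brightest in control, with 10.31, 10.49 and 10.24 (log2, replicates 1 to 3), against 9.23, 9.52 and 9.47 in Dox. SB arrays gave 8.84, 9.56 and 10.10, and SB+Dox arrays 9.41, 9.48 and 10.35. All 3 Dox arrays and all 3 SB arrays lay below all 3 control arrays, while SB+Dox replicate 3 lay within the control range. The group levels were 10.35 ± 0.13 in control (SD, n = 3), 9.74 ± 0.52 in SB+Dox, 9.50 ± 0.63 in SB and 9.41 ± 0.16 in Dox, and the lower 3 overlapped one another. Replicate 1 was the lowest and replicate 3 the highest in both inhibitor groups, as was also so for the muscle marker mean in SB (8.26 in replicate 1, 9.06 in replicate 3) and in SB+Dox (9.55 and 9.94).

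Dox against control compares cells with and without doxycycline in the absence of the inhibitor. Atp2a1 was 0.94 lower on the log2 scale in Dox than in control (log2 difference -0.94, SE 0.27, 95% interval -1.51 to -0.37), which missed the threshold over all clusters (limma adjusted p = 0.0572). Its p passed without SB replicate 1 (adjusted p = 0.0173), SB replicate 3 (0.019) or SB+Dox replicate 3 (0.022), 3 arrays that share in the estimate of spread but not in this difference. With only the control and Dox arrays in the fit, adjusted p was 0.00159. The difference still missed the threshold in 12 of the 22 alternatives, with adjusted p of up to 0.189. In the same comparison the muscle marker mean, which includes Myog, ran the other way, with every Dox array above every control array. SB against control gave -0.85 (SE 0.27, interval -1.42 to -0.28, adjusted p = 0.0818), and without SB replicate 3 the difference was -1.15 (adjusted p = 0.0114), whereas without SB replicate 1 it was -0.52 (adjusted p = 0.312). Without SB+Dox replicate 3 the latter comparison also passed (adjusted p = 0.0358). The change from SB to SB+Dox, 0.24, had an interval from -0.33 to 0.82 (adjusted p = 0.638), and it turned to -0.087 without SB replicate 1 and to -0.057 without SB+Dox replicate 3.

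Atp2a2, the gene of the slow and housekeeping pump, varied least among the 5 genes other than Sln. Its arrays gave 10.65, 10.83 and 10.45 in control and 10.65, 10.85 and 10.59 in Dox, 2 groups that overlapped. SB arrays lay lower at 10.17, 10.25 and 10.36, and SB+Dox arrays at 10.37, 10.34 and 10.49. Every SB array lay below every control array and every Dox array, and the SB+Dox arrays overlapped those of control and of SB. In SB against control the difference was -0.38 (SE 0.11, interval -0.62 to -0.15, adjusted p = 0.0519), just short of the threshold. It passed without control replicate 3 (adjusted p = 0.0228), Dox replicate 2 (0.0488) or SB replicate 3 (0.0424). It moved the other way without control replicate 2, to -0.29 (adjusted p = 0.23), and without SB replicate 1, to -0.34 (adjusted p = 0.163). SB+Dox against Dox gave -0.30 (adjusted p = 0.113), and Dox against control 0.053 with an interval from -0.18 to 0.29 (adjusted p = 0.928).

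**Figure D1:**
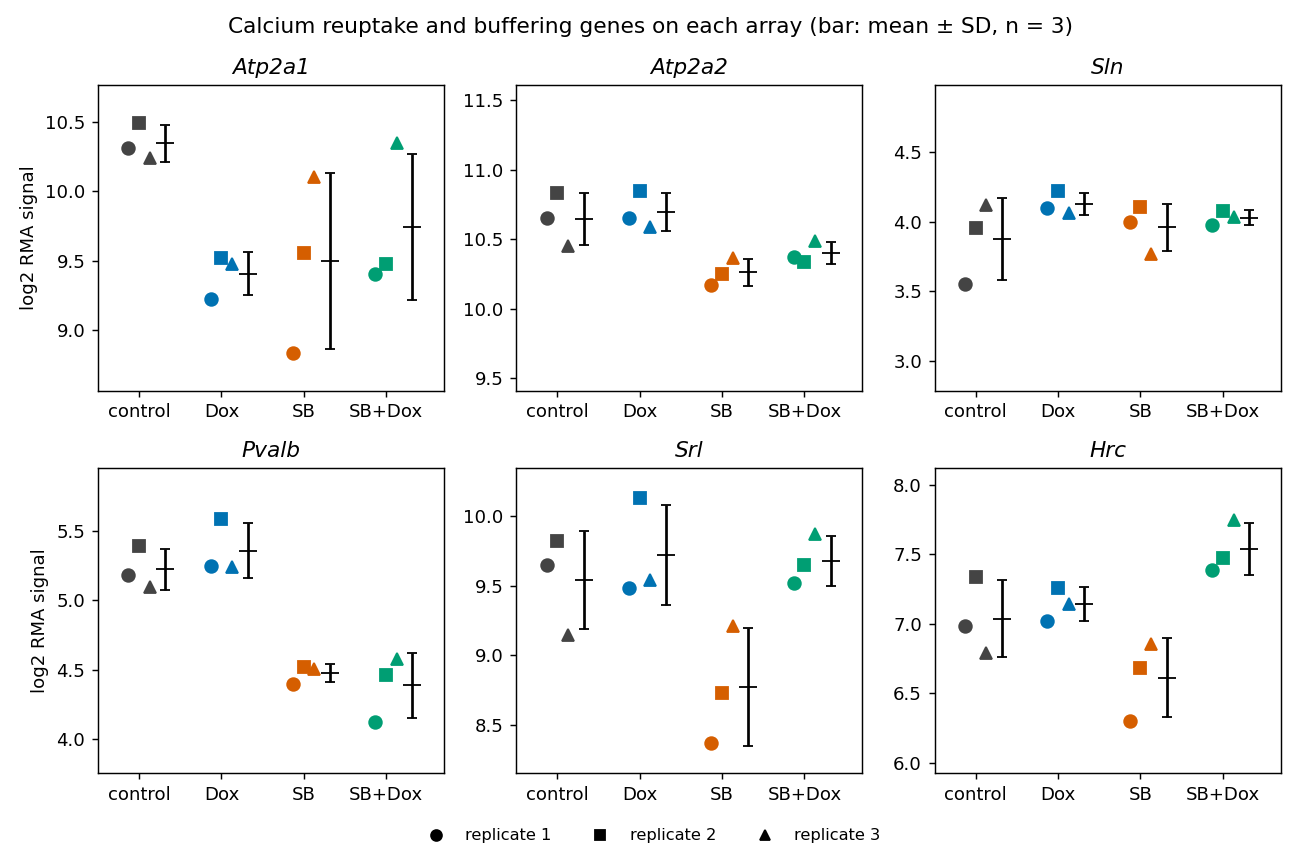
Log2 RMA signal (y axis, the same span in each panel) of the 6 genes in the 4 groups (x axis), 1 point per array with the marker shape giving the replicate number, and the bar giving mean ± SD of 3 arrays. Pvalb is lower on all 6 arrays with SB203580, Srl and Hrc are lowest in SB, and the 3 Dox arrays of Atp2a1 lie below the 3 control arrays.

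Whether the pump genes moved unequally was examined on the difference Atp2a1 minus Atp2a2 within each array, whose absolute size has no meaning but whose shift between groups has. It was -0.30 ± 0.072 in control (SD, n = 3), -0.76 ± 0.54 with SB, -1.29 ± 0.16 with Dox and -0.66 ± 0.45 with SB+Dox. All 3 Dox arrays (-1.43, -1.33 and -1.11) lay below all 3 control arrays (-0.34, -0.34 and -0.21), a shift of -0.99 with p = 0.1 in an exact two-sided permutation test, the smallest p that 3 against 3 allows (0.25 adjusted over 5 comparisons). All SB+Dox arrays lay above all Dox arrays, with means 0.63 apart (exact p = 0.1, adjusted p = 0.25). In the inhibitor groups the spread was wide, from -1.33 to -0.26 in SB and from -0.97 to -0.14 in SB+Dox. SB against control gave -0.46 (exact p = 0.3), SB+Dox against SB 0.11 (exact p = 0.9) and SB+Dox against control -0.36 (exact p = 0.4).

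**Figure D2:**
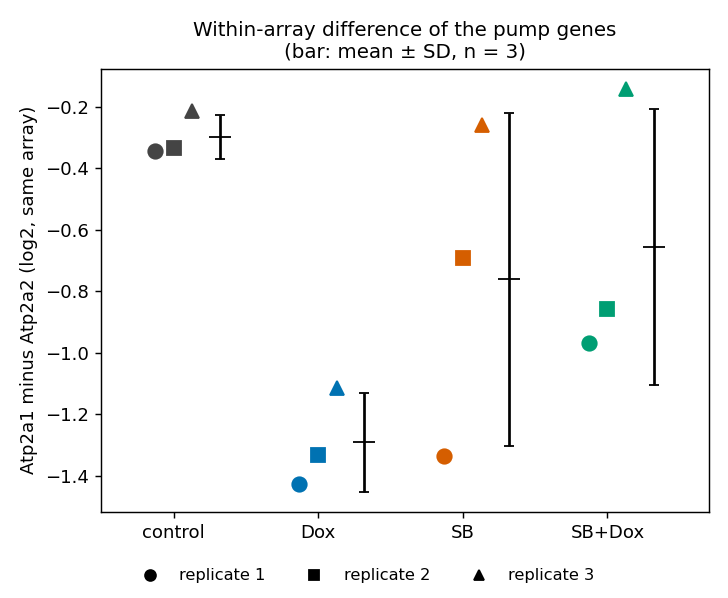
Atp2a1 minus Atp2a2 in log2 units on the same array (y axis) by group (x axis), with points for arrays, shapes for replicate numbers and bars for mean ± SD of 3 arrays. The Dox arrays sit between -1.43 and -1.11, below the control arrays at -0.34 to -0.21, and the SB and SB+Dox arrays spread over much of the range.

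Sln, the pump's small inhibitor, sat low on the array in every group and no comparison separated its groups. Control arrays gave 3.55, 3.96 and 4.12, Dox arrays 4.10, 4.22 and 4.06, SB arrays 4.0, 4.11 and 3.77, and SB+Dox arrays 3.97, 4.08 and 4.03. All 4 groups overlapped. The group means of 3.87 to 4.13 stood at or above the signal of only 20.9% to 25.5% of the tested clusters in their groups, and no background level was measured, so a difference at such a signal may be understated. Nor was it shown that Sln had a signal above background. Its largest difference, Dox against control, was 0.25 with an interval from -0.028 to 0.53 (adjusted p = 0.426). SB against control was 0.084 with an interval from -0.20 to 0.36 (adjusted p = 0.821), and -0.079 without control replicate 1.

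Srl, the gene of sarcalumenin, had its lowest level in SB. It measured 9.65, 9.82 and 9.15 in control and 9.48, 10.13 and 9.54 in Dox, with the groups overlapping. SB arrays gave 8.37, 8.73 and 9.21 and SB+Dox arrays 9.52, 9.65 and 9.87, so that every SB+Dox array lay above every SB array. Under the inhibitor, doxycycline left Srl 1.88-fold higher (log2 change 0.91, SE 0.22, interval 0.44 to 1.38, adjusted p = 0.02). That call was lost without SB replicate 1 (0.71, adjusted p = 0.103), SB replicate 2 (0.0758), SB+Dox replicate 2 (0.0535) or SB+Dox replicate 3 (0.101), and when clusters with several symbols or none were tested as well (adjusted p = 0.0786).

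In SB against control Srl differed by -0.77 (SE 0.22, interval -1.24 to -0.30) and stood just outside the threshold (adjusted p = 0.0514). SB replicate 3, at 9.21, overlapped control replicate 3, at 9.15, and without either array the difference passed, at -0.99 (adjusted p = 0.0114) and -0.97 (adjusted p = 0.0261). It passed without Dox replicate 2 too (adjusted p = 0.0335). Without SB replicate 1 it was -0.57 (adjusted p = 0.215) and without control replicate 2 -0.63 (adjusted p = 0.207). SB+Dox and control Srl levels were 9.68 ± 0.18 and 9.54 ± 0.35 (SD, n = 3), a difference of 0.14 with an interval from -0.33 to 0.61 (adjusted p = 0.846). Doxycycline without the inhibitor gave 0.18 with an interval from -0.29 to 0.65 (adjusted p = 0.857).

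Hrc had its highest level in SB+Dox and its lowest in SB. Control arrays gave 6.98, 7.34 and 6.79 and Dox arrays 7.02, 7.26 and 7.14. SB arrays gave 6.30, 6.68 and 6.85 and SB+Dox arrays 7.39, 7.48 and 7.75. Every SB+Dox array lay above every array of the other 3 groups, and SB overlapped control through SB replicate 3. Doxycycline under the inhibitor left Hrc 1.9-fold higher (log2 change 0.92, SE 0.16, interval 0.59 to 1.26, adjusted p = 0.00239), and the call held under every alternative, with adjusted p between 6.25e-04 and 0.018.

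Against control the Hrc level in SB+Dox was 0.50 higher (SE 0.16, interval 0.16 to 0.83, adjusted p = 0.0892). Without control replicate 2 that difference was 0.65 and passed (adjusted p = 0.0361). It was not called in 19 of 22 alternatives, with differences down to 0.38 and adjusted p of up to 0.341. SB+Dox against Dox gave 0.40 (interval 0.061 to 0.73, adjusted p = 0.146). SB against control gave -0.42 (SE 0.16, interval -0.76 to -0.089, adjusted p = 0.15), or -0.27 without SB replicate 1 (adjusted p = 0.459) and likewise without control replicate 2 (0.488). The doxycycline difference without the inhibitor, Dox against control, was 0.10 (adjusted p = 0.891).

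Pvalb, the cytosolic buffer of fast fibres, was lower wherever SB203580 was present. Control arrays gave 5.18, 5.39 and 5.10 and Dox arrays 5.25, 5.58 and 5.23. SB arrays gave 4.40, 4.52 and 4.51 and SB+Dox arrays 4.12, 4.46 and 4.58, all 6 below all 6 arrays without the inhibitor. Pvalb fell 1.68-fold in SB against control (log2 change -0.75, SE 0.13, interval -1.02 to -0.47, adjusted p = 0.00262). Set against Dox, the SB+Dox level was 1.96-fold lower (log2 change -0.97, SE 0.13, adjusted p = 1.76e-04). Set against control, it was 1.78-fold lower (-0.83, SE 0.13, adjusted p = 0.00137). In these 3 comparisons the call held under every alternative that kept the cluster, with adjusted p no higher than 0.0168, 0.00195 and 0.0104. With doxycycline its differences were -0.088 in the presence of the inhibitor (interval -0.36 to 0.19, adjusted p = 0.736) and 0.13 without it (interval -0.14 to 0.41, adjusted p = 0.783).

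The Pvalb signal was itself low. Its group means were at or above 47.8% of tested clusters in control and 50.8% in Dox, and at or above 31.3% in SB and 31.6% in SB+Dox. The filter on clusters under the 50th percentile removed it. The Pvalb group means ran from 4.39 to 5.35. Averages of neuronal markers (4.75 to 5.16) and cardiac markers (4.88 to 5.16) lay inside that span, and those of adipocyte and osteoblast markers below it. No background level was measured, so it was not shown that this signal came from Pvalb transcript. If it did, the printed folds may be too small.

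Read by comparison, SB against control had 0 of the 6 genes called higher and 1 called lower (Pvalb), where 2.51% of all 21789 tested clusters were called higher and 3.87% lower (6.38% in all). At an unadjusted p under 0.05 there were 5 of 6, all lower, with Sln the exception, where 17.3% of all clusters had such a p in either direction. In 3 genes (Atp2a1, Atp2a2 and Pvalb) all SB arrays lay below all control arrays, against 9.72% of clusters, and in 0 genes did they lie above, against 10.3%. The median difference of the 6 was -0.59, beside 0.028 over all tested clusters. The number called was 4 without SB replicate 3, 3 without control replicate 3 or without Dox replicate 2, 2 without SB+Dox replicate 3 and 5 with array weights, all lower each time. For fits with an array left out or weighted, here and below, no share of all clusters called was computed.

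For SB+Dox against SB, 2 genes were called higher (Srl and Hrc) and 0 lower, beside 4.4% and 2.71% of all clusters (7.11% in all). The same 2 were the only ones whose groups did not overlap, against 12.8% of clusters higher and 12.3% lower without overlap. The median was 0.19 for the 6 and -0.042 for all. This comparison shares its SB arrays with the previous one. The count was 1, Hrc, when SB replicate 1, SB replicate 2, SB+Dox replicate 2 or SB+Dox replicate 3 was left out.

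SB+Dox against Dox called 0 higher and 1 lower (Pvalb), beside 6.97% and 3.43% of clusters (10.4% in all). Groups were apart for Atp2a2 and Pvalb (lower, 13.5% of clusters) and Hrc (higher, 15.6%), and the medians were -0.069 for the 6 and -0.025 for all. SB+Dox against control, the difference left with both agents, called 0 higher and 1 lower (Pvalb), beside 2.84% and 2.42% of clusters (5.26% in all), and the count was 2 without control replicate 2. Groups were apart for Pvalb (lower, 10.7% of clusters) and Hrc (higher, 12.5%). In Dox against control limma called 0 of 6, beside 5.31% of clusters called, 1.43% higher and 3.88% lower. At an unadjusted p under 0.05 there was 1 (Atp2a1), where 14.6% of clusters had such a p. Atp2a1 was also the only gene whose groups were apart (lower, 10.8% of clusters, with 9.12% higher), and without SB replicate 1, SB replicate 3 or SB+Dox replicate 3 the count was 1.

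**Figure D3:**
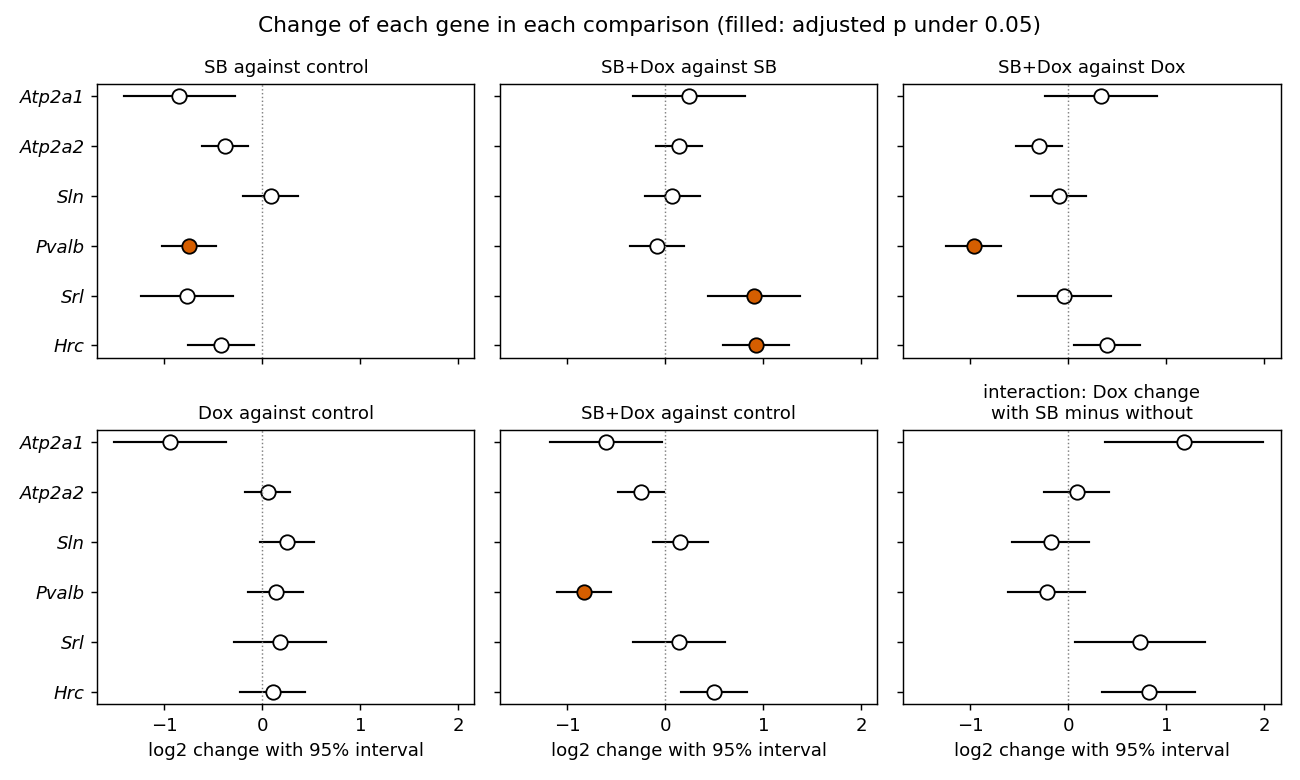
Log2 change (x axis) with its 95% interval for each gene (rows) in the 5 comparisons and the interaction (panels), filled where limma's adjusted p was under 0.05. Filled points are Pvalb at -0.75, -0.97 and -0.83 in the comparisons of an inhibitor group with a group without it, and Srl at 0.91 and Hrc at 0.92 in SB+Dox against SB.

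The interaction asks whether the doxycycline difference itself differed with the inhibitor. Limma called 0 of the 6 genes, beside 0.895% of clusters called, 0.725% higher and 0.17% lower. At an unadjusted p under 0.05 there were 3 of 6, where 11.4% of clusters had such a p. Atp2a1 gave 1.18 (SE 0.38, interval 0.38 to 1.99, adjusted p = 0.199), Hrc 0.82 (SE 0.22, interval 0.35 to 1.29, adjusted p = 0.123) and Srl 0.73 (SE 0.31, interval 0.066 to 1.40, adjusted p = 0.372). Without SB replicate 3, Atp2a1 at 1.48 (adjusted p = 0.0421) and Hrc at 0.94 (adjusted p = 0.0487) passed, a count of 2. Atp2a1 was not called in 20 of its 21 alternatives (adjusted p of up to 0.441), nor Hrc in 19 of 21 (up to 0.32). Pvalb gave -0.22 with an interval from -0.61 to 0.17 (adjusted p = 0.689), Sln -0.18 (adjusted p = 0.758) and Atp2a2 0.086 (adjusted p = 0.868). Doxycycline responses with and without the inhibitor were therefore not shown to differ for any of the 6.

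The genes with the most similar course were found as those with the smallest root mean square difference over the 12 arrays, after each gene was centred on its own mean, among 17253 genes. Hrc lay nearest to Tubb6, a tubulin (0.070 log2 units, against a median of 0.43 over all genes), Ehd4 (0.098), a protein of endocytic recycling, and Dmpk (0.12), the kinase of myotonic dystrophy. Srl lay nearest to Akip1 (0.16), to Ryr1 (0.18), the calcium release channel of skeletal muscle, and to Flnc (0.18), muscle filamin, with a median of 0.52. Srl and Hrc were 0.24 apart, and Hrc ranked 34 among the 19937 other genes in likeness to Srl. No other of the 15 pairs among the 6 had a smaller distance.

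Atp2a1 was nearest to Tnnc2 (0.21), the fast troponin C, then to Cd36 (0.22), a fatty acid transporter, and Nid1 (0.25), a basement membrane protein, with a median of 0.54. Tnnc2 measured 9.14 ± 0.14 in control (log2, SD, n = 3), 8.35 ± 0.50 with SB, 8.65 ± 0.14 with Dox and 8.74 ± 0.33 with SB+Dox. As the nearest genes were picked by likeness on these same arrays, a shared group order follows from that choice. Pvalb was nearest to Susd6 (0.14), to Creb3l1 (0.15), a membrane-bound transcription factor, and to Stard13 (0.15), with a median of 0.48. Creb3l1 stood at 9.09 ± 0.18 in control and 9.23 ± 0.072 in Dox, and at 8.22 ± 0.15 in SB and 8.13 ± 0.057 in SB+Dox. For Atp2a2 they were Pbxip1 (0.083), Kif1c (0.085) and Tead3 (0.085), with a median of 0.27. The nearest to Sln were Fgb (0.099), Ccdc78 (0.10) and Morc2b (0.11) with a median of 0.23; Sln itself varied by only 0.17 about its mean on the same measure.

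**Figure D4:**
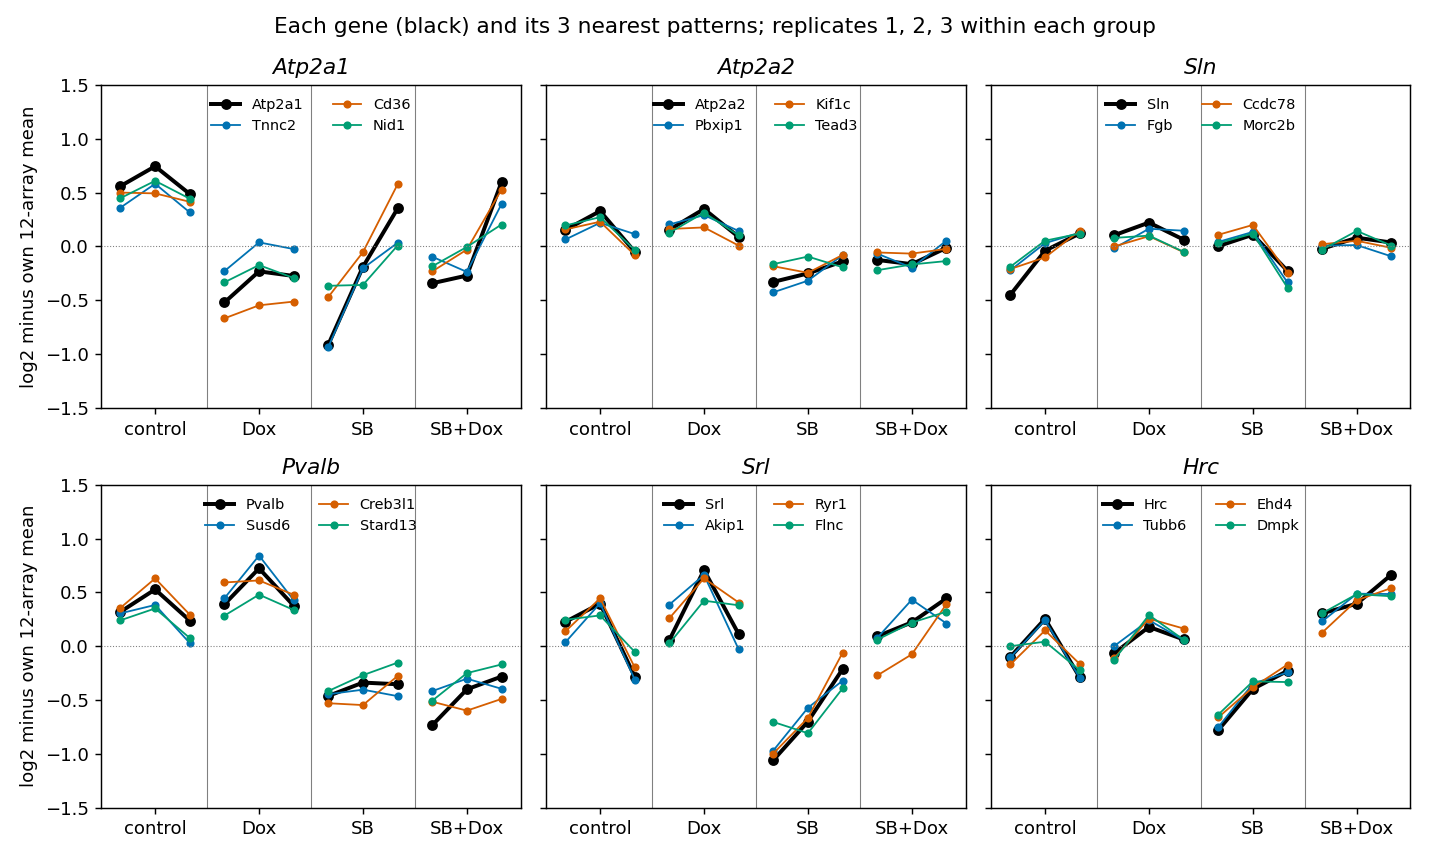
Log2 signal minus the gene's own 12-array mean (y axis) for each of the 6 genes in black and its 3 nearest genes in colour, with the 12 arrays along the x axis in groups of replicates 1 to 3. The Hrc panel shows Tubb6, Ehd4 and Dmpk at distances of 0.070, 0.098 and 0.12 from Hrc, with SB lowest and SB+Dox highest, and the Atp2a1 panel shows control highest.

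Other genes of calcium uptake, storage and extrusion were counted from 6 lists, 42 of whose 49 genes were measured. In SB against control 1 was called higher and 4 lower, beside 2.51% and 3.87% of all clusters, and in SB+Dox against SB 2 and 3, beside 4.4% and 2.71%. In SB+Dox against Dox they were 3 and 2 (6.97% and 3.43% of all clusters), in Dox against control 2 and 1 (1.43% and 3.88%) and in SB+Dox against control 3 and 4 (2.84% and 2.42%). Their median differences in these 5 comparisons were -0.028, 0.049, 0.0039, 0.014 and 0.0072, beside 0.028, -0.042, -0.025, 0.0060 and -0.016 over all clusters.

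Luminal buffers and chaperones (12 of 12 measured) had 0 higher and 3 lower in SB against control, beside 2.51% and 3.87% of all clusters. Casq2, cardiac and slow calsequestrin, the main calcium store of the reticulum, rose 5.41-fold in SB+Dox against SB, from 7.26 ± 0.47 to 9.69 ± 0.22 (log2, SD, n = 3, adjusted p = 2.71e-05). It stood at 8.07 ± 0.28 in control and 9.16 ± 0.22 in Dox, where it rose 2.12-fold (adjusted p = 0.00427). Its interaction of 1.35 passed (SE 0.29, adjusted p = 0.0435), but 0 genes of its list passed when any 1 array other than SB replicate 3 was left out. The fall of Casq2 in SB against control was 1.76-fold (adjusted p = 0.0254), which no longer passed when control replicate 2, SB replicate 1 or SB replicate 2 was left out (adjusted p of up to 0.122). That call was also lost with every cluster tested (adjusted p = 0.0963) and with only the groups compared fitted (adjusted p = 0.0557). Casq1, the fast calsequestrin, fell 2.22-fold in SB (from 6.14 ± 0.38 to 4.99 ± 0.18, adjusted p = 0.00678) and measured 5.36 ± 0.35 in Dox, a difference from control of -0.77 that did not pass (adjusted p = 0.0713).

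Nucb2, a nucleobindin, fell 1.47-fold in SB (adjusted p = 0.0247), which no longer passed when replicate 1 or 2 of control or of SB was left out (adjusted p of up to 0.117). That call was also lost with every cluster tested (adjusted p = 0.0822) and with only the groups compared fitted (adjusted p = 0.0572). Nucb2 rose 1.8-fold in Dox against control (adjusted p = 0.0016). In SB+Dox it was 2.36-fold lower than in Dox (adjusted p = 3.77e-05), and its interaction was not called (-0.68, adjusted p = 0.151). Rcn3, a reticulocalbin of the secretory pathway, fell 1.51-fold in SB+Dox against SB (adjusted p = 0.00384) and 2.33-fold in Dox against control (adjusted p = 2.17e-05). The list had 1 gene higher and 1 lower in SB+Dox against SB, beside 4.4% and 2.71% of all clusters.

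Pumps and pump regulators (6 of 9 measured) had 0 higher and 1 lower in SB against control, and 1 higher and 1 lower in SB+Dox against SB, where 6.38% and 7.11% of all clusters were called in either direction. Hax1, whose protein binds the pump regulator phospholamban, fell 1.49-fold in SB (from 8.23 ± 0.10 to 7.65 ± 0.10, adjusted p = 0.00217) and rose 1.65-fold from SB to SB+Dox (8.37 ± 0.12, adjusted p = 5.67e-04). Mrln, which encodes myoregulin, a micropeptide inhibitor of SERCA, fell 1.44-fold from SB to SB+Dox (5.53 ± 0.033 against 6.06 ± 0.29, adjusted p = 0.017). The Mrln call was lost without any 1 of the SB+Dox arrays and with each array centred on its median. It was also lost with every cluster tested and with only the groups compared fitted. The adjusted p was up to 0.0765 in these fits. Phospholamban itself (Pln), named here outside the rule after its values were seen, measured 3.32 ± 0.14 in control, 3.67 ± 0.33 with SB, 3.60 ± 0.13 with Dox and 3.40 ± 0.15 with SB+Dox, and had no call. These means lay below those of Sln (3.87 to 4.13), so the low signal limits Pln in the same way.

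Cytosolic calcium binders (7 of 8 measured) had 1 higher and 0 lower in SB against control, beside 2.51% and 3.87% of all clusters. The gene was Calm3, a calmodulin gene, 1.44-fold higher (adjusted p = 0.0117) but not called without control replicate 1, without SB replicate 2 or with each array centred on its median, at adjusted p of up to 0.0632. In SB+Dox against SB the list had 0 higher and 1 lower, beside 4.4% and 2.71% of all clusters. The gene was Sri (sorcin), 1.33-fold lower (adjusted p = 0.0232). The Sri call was lost without SB replicate 1, SB replicate 2 or SB+Dox replicate 3 and with each array centred on its median. It was also lost with every cluster tested and with only the groups compared fitted. The adjusted p was up to 0.139 in these fits. Plasma membrane extrusion genes (6 of 7 measured) had 0 calls in limma in every comparison, with 0 to 2 at an unadjusted p under 0.05. Of all clusters, 11.4% (interaction) to 20.9% had such a p. Mitochondrial uptake (6 of 8) and store-operated entry (5 of 5) each had 0 calls in SB against control and in SB+Dox against SB, with 1 to 3 at an unadjusted p under 0.05. Among all clusters 6.38% and 7.11% were called in these comparisons, and 17.3% and 20.9% had such a p. In SB+Dox against Dox the mitochondrial and store-operated lists each had 1 gene called higher, beside 6.97% of all clusters. Chosen after the values were seen, Stim1, the store's calcium sensor, stood in SB+Dox at 1.69 times its Dox level and 1.88 times its control level (adjusted p = 0.00643 and 0.00379).

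**Figure D5:**
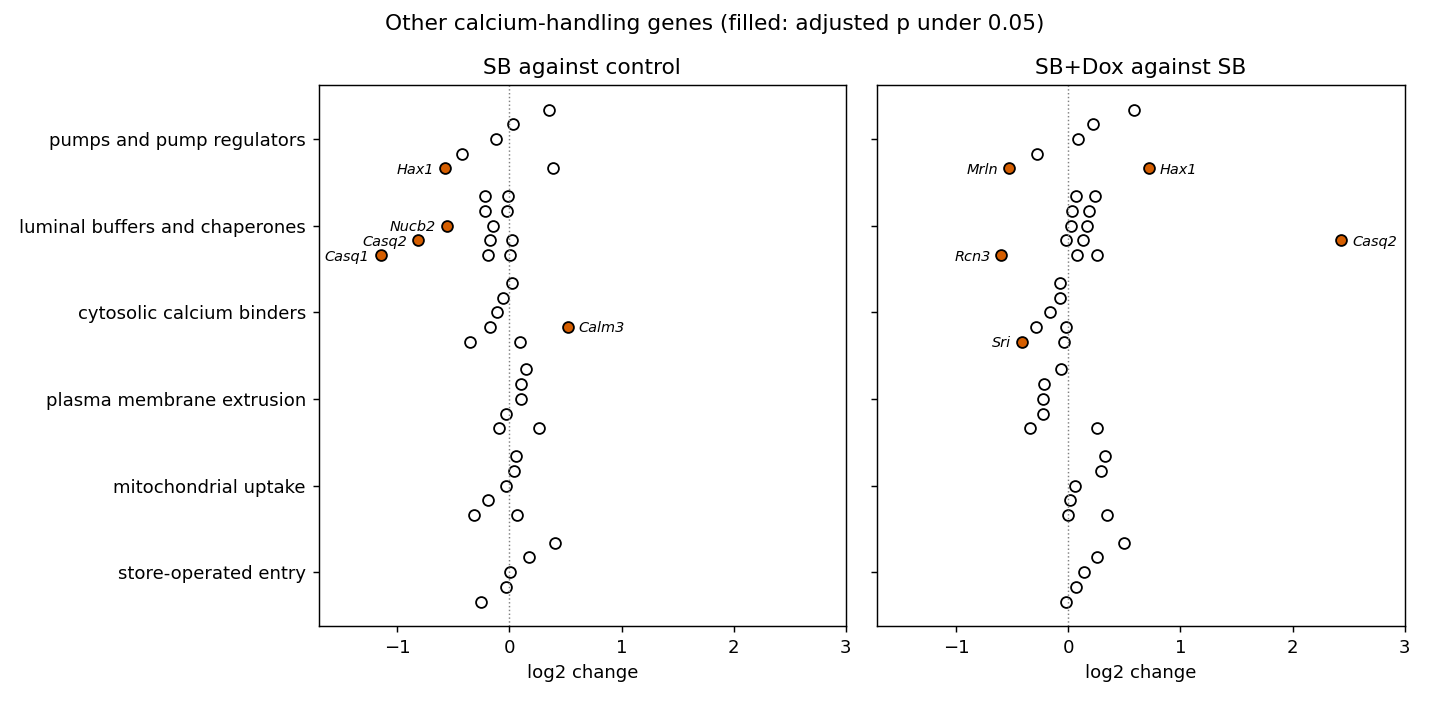
Log2 change (x axis) of the 42 other calcium-handling genes by list (rows), 1 point per gene, filled and named where limma's adjusted p was under 0.05, for SB against control and for SB+Dox against SB. Casq2 stands farthest out in SB+Dox against SB at 2.44, and most other points lie between -0.5 and 0.5.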

How the data were processed

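The deposited table held 1 log2 RMA value for each cluster on each array, made by the authors with RMA in Affymetrix Expression Console, per the submitters' processing notes (versions are not given in the sources used here). Of 35557 clusters, 21789 carried exactly 1 symbol, 21698 of them found in RefSeq through their Entrez number, and were tested; 1621 carried several symbols and 12147 none. Arrays have no depth, and 3 arrays per group limit the precision. Values ran from 0.5 to 13.17.

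All 12 arrays entered one linear model of group means, in limma 3.58.1 under R 4.3.3 (statmod 1.5.0 for alternatives), with eBayes without trend (8 residual and 6.56 prior degrees of freedom), Benjamini-Hochberg adjustment over all tested clusters and a threshold of 0.05. The method was tested on simulated data. Atp2a1 minus Atp2a2 was compared by exact permutation.

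The members and lists were chosen with earlier results of these data known. Named were the 6 members, Myog, up to 3 called genes of each list with the smallest p in SB against control and in SB+Dox against SB, and 3 nearest patterns per member (Pln and Stim1 fall outside this rule), leaving out olfactory receptors, predicted genes and small RNAs (microRNA or nucleolar). A gene with several clusters was read from its brightest.

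After group means were removed, the correlation between equally numbered SB and SB+Dox arrays was 0.44, 0.19 and 0.49, so the numbers were taken to pair these groups. In no other pair of groups did all 3 exceed 0.1. Dox and SB+Dox arrays gave 0.088, 0.28 and 0.15, and each Dox array there also correlated most with its own number. The main model held no term for the replicate number, so its p-values are unpaired. The replicate block, scaling, filters, variance models, weights and the leaving out of each array were tried as alternatives.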

Additional observations from a re-analysis of the deposited data

How the results depend on the processing

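Of 36 differences (6 genes in 5 comparisons and the interaction), 14 kept their sign and their side of the threshold under every one of the 22 alternatives that gave them a value. Among the called differences, those of Pvalb and of Hrc were never lost, except that the filter at the 50th percentile left Pvalb untested. Leaving out 1 array at a time, the number of genes called ranged from 1 to 4 in SB against control, 0 to 1 in Dox against control, 1 to 2 in SB+Dox against control, 1 to 2 in SB+Dox against SB, 1 to 1 in SB+Dox against Dox and 0 to 2 for the interaction.

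With the replicate block the number called was 4 in SB against control, 1 in Dox against control and 2 in SB+Dox against control; paired by number, SB+Dox against SB kept 2 (Srl adjusted p = 0.0144, Hrc 9.55e-04). Array weights gave 5 called in SB against control, 1 in Dox against control, 3 in SB+Dox against control, 2 in SB+Dox against Dox and 1 for the interaction. Quantile normalisation gave 2 called in SB against control, 2 in SB+Dox against Dox and 1 in Dox against control. Without clusters under the 25th percentile 3 were called in SB against control and 1 in Dox against control. At the 50th percentile these were 2 and 1, with 0 in SB+Dox against Dox and in SB+Dox against control, where Pvalb was not tested. An eBayes trend gave 3 and 1 in the first pair, fitting only the groups compared gave 1 in Dox against control, and testing every cluster left 1 in SB+Dox against SB. The share of all clusters called was computed for the main fit only, so the counts in this section have no such share beside them. Why they moved was not tested. The filters changed both the number of clusters adjusted over and the fitted variances.

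Signs turned only in differences that were not called, for which the range over single arrays left out is given. SB against control ran from -0.079 (without control replicate 1) to 0.21 for Sln. Dox against control ran from -0.044 (without control replicate 3) to 0.14 for Atp2a2, from -0.028 (without Dox replicate 2) to 0.32 for Srl and from -0.018 (without control replicate 3) to 0.25 for Hrc. SB+Dox against control ran from -0.0087 (without control replicate 1) to 0.28 for Sln and from -0.058 (without control replicate 3) to 0.28 for Srl. SB+Dox against Dox ran from -0.16 to 0.17 (without Dox replicate 2) for Srl. SB+Dox against SB ran from -0.087 (without SB replicate 1) to 0.55 for Atp2a1, from -0.024 (without SB replicate 3) to 0.14 for Sln, and from -0.18 to 0.043 (without SB+Dox replicate 1) for Pvalb. The interaction ran from -0.0060 (without control replicate 2) to 0.18 for Atp2a2 and from -0.21 (without SB replicate 1) to 0.43 for Myog. With array weights, Sln was -0.012 in SB+Dox against SB and Myog -0.031 in the interaction. The shift of Atp2a1 minus Atp2a2 in SB+Dox against SB ranged from -0.18 to 0.36, that in Dox against control from -1.08 to -0.92, in SB against control from -0.71 to -0.18, in SB+Dox against Dox from 0.38 to 0.79 and in SB+Dox against control from -0.61 to -0.20. Each of the 6 genes had 1 cluster, so averaging clusters gave no other value. No signal over background was used, which limits what can be said of Sln, Pvalb and Pln.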
